A study of Homo sapiens with 36 samples.

Results

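Marginal zone and hairy-cell lines were set against mantle cell lymphoma lines in 14 of the 36 lymphoma cell lines of the series. The members were chosen by line name. The first side held 5 lines, namely the hairy-cell lines HAIR_M and HC_1 and the marginal zone lines KARPAS1718, SSK41 and VL51, and the mantle side held 9, namely GRANTA519, JEKO1, JVM2, MAVER1, MINO, REC1, SP49, SP53 and UPN1. RNA of lysed cells was measured with a targeted panel of 2549 genes, and each line was sequenced as 1 library, with no treatment named in the labels. The other 22 lines were not used here. The labels name the line and no disease, so the assignment to a lymphoma entity rests on what the lines are known as. Each line comes from 1 person and has been kept in culture, so a line is a model of that tumour's cells without their tissue. JVM2 is an Epstein-Barr virus-transformed line from a prolymphocytic leukaemia with the mantle translocation, and GRANTA519 also carries that virus. These statements also rest on what the lines are known as. The labels give no virus status for any line, so it was not compared between the sides, and its part in any difference was not tested. The labels do not say whether HAIR_M and HC_1 carry the BRAF mutation typical of classical hairy cell leukaemia.

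The compared diseases are all cancers of mature B cells. Mantle cell lymphoma is known for a translocation that places cyclin D1 (CCND1) next to the immunoglobulin heavy chain locus, so that the D-type cyclin that pairs with CDK4 and CDK6 is made where B cells normally make little of it. Splenic marginal zone lymphoma is known for loss of part of the long arm of chromosome 7, NOTCH2 and KLF2 mutations, and hairy cell leukaemia for MAPK pathway activity and for surface CD25 (IL2RA), CD11c and annexin A1.

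Values are CPM, reads of a gene over the library's panel reads on the usual per-library scale after TMM scaling, and a fold change is the log2 ratio of the marginal zone and hairy-cell side over the mantle side in the fitted model, so positive values are higher on the first side. It follows the arithmetic level of a side, so that 1 very high line can set it. A gene was called at an adjusted p under 0.05. With 1 library a line, p-values measure the spread between lines. In such bulk samples, fewer cells of a type and less RNA per cell cannot be told apart. Coordinates are of the hg38 build with the annotation of GENCODE release 29, and the probe's place within a gene is not given in the sources used here.

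Library totals ran from 6422917 panel reads in HAIR_M to 12472040 in SP53. Mean log2 library size was 23.09 ± 0.29 (SD, n = 5) on the first side and 23.36 ± 0.14 (SD, n = 9) on the mantle side, a difference of -0.27 with an exact two-sided permutation p of 0.0215 (adjusted over 2 measures, 0.043), which was over the threshold when any of 10 of the 14 lines was left out (up to an adjusted exact p of 0.19, without HAIR_M). Libraries of 1 side did not form a tight set: Spearman's correlation across genes ran from 0.684 to 0.849 between first-side lines, 0.708 to 0.943 between mantle lines and 0.644 to 0.881 between the sides, and HAIR_M, HC_1 and VL51 each had JVM2 as their nearest library. As descriptions of the panel's markers, B-cell identity genes summed to 4362 to 10612 CPM on the first side and 5116 to 13451 CPM on the mantle side. The 10 T and NK cell markers summed to 82.8 to 453 and 61.6 to 678 CPM, and the 11 myeloid markers to 601 to 1849 and 328 to 1478 CPM. The 13 stromal and endothelial markers summed to 164 to 738 CPM on the first side and 281 to 872 CPM on the mantle side. The 11 epithelial markers summed to 948 to 1361 and 549 to 1191 CPM. Only 2 stromal and endothelial markers, KDR and TEK, and 2 epithelial markers, KRT7 and ERBB3, never passed 10 CPM. Each of these was at 0 in at least 1 line.

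No gene of 2207 tested passed in edgeR's quasi-likelihood test of the sides (0% called), and the smallest adjusted p was 0.0752. At an unadjusted p under 0.05 there were 157 genes (7.11%), of which 109 were higher on the marginal zone and hairy-cell side (4.94%) and 48 lower (2.17%). DESeq2's Wald test called 29 genes, limma-voom 1, and limma on the authors' log2 values 0. An exact permutation test per gene also gave 0, but its smallest possible p, 0.0004995, passes the adjustment only if many genes reach it, so that count says little. The count of 0 rested on 3 lines: 10 genes passed without KARPAS1718, all higher, 11 without JVM2, and EFNA5 alone without SSK41. Fold changes were above 0 in 1279 of the 2207 genes (58%). On TMM-scaled CPM, only MGMT had no overlap between the sides (0.0453% of genes), and its margin was narrow. The genes named in the next paragraphs come from the 10 with the smallest p in each direction, none of which passed, and from gene lists.

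**Figure D1:**
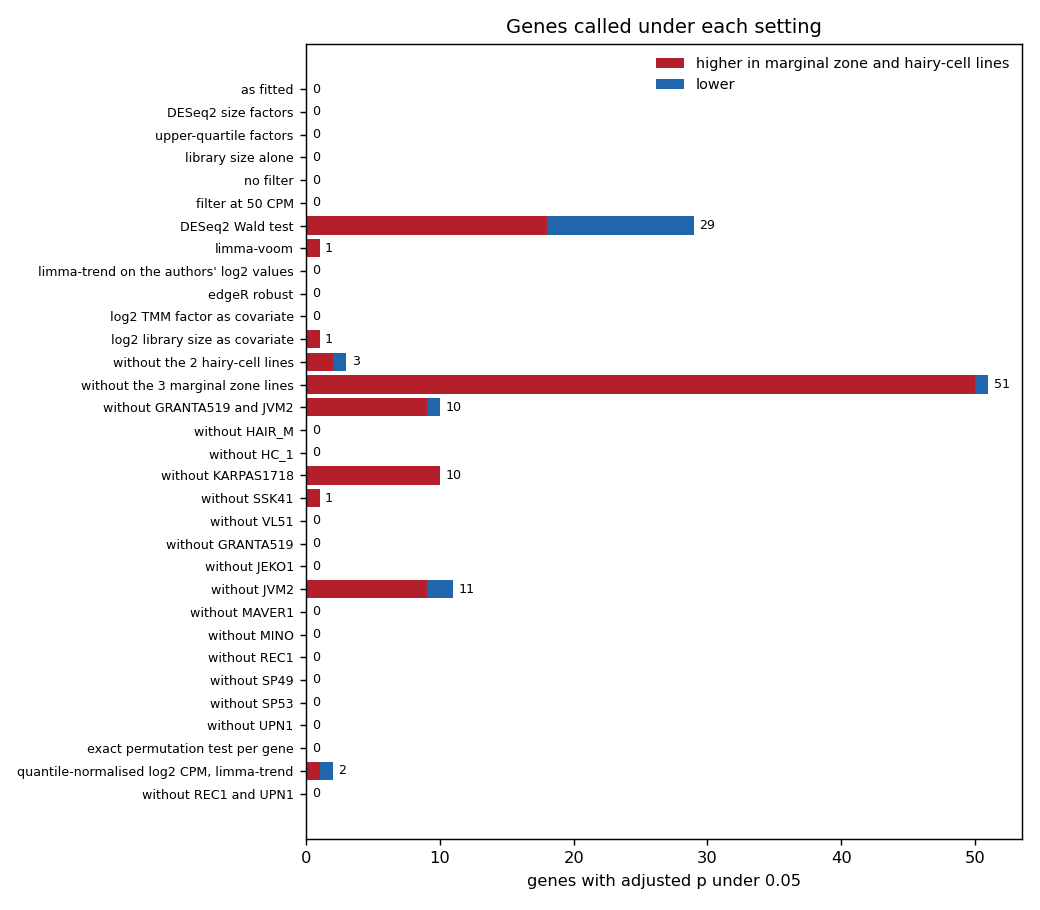
Number of genes with an adjusted p under 0.05 (x axis) between the marginal zone and hairy-cell lines and the mantle lines under each setting (y axis), red for genes higher on the first side and blue for lower ones. The count was 0 as fitted, 10 without KARPAS1718, 11 without JVM2 and 51 without the 3 marginal zone lines.

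Among the 16 G1 cyclins, kinases and inhibitors, CDK6 had the highest fold change and CCND1 the lowest. CDK6 (chromosome 7 at 92604921 to 92836594, minus strand) encodes a kinase that D-type cyclins activate in G1. Its level was 225 CPM in HAIR_M, 170.4 in HC_1, 596 in KARPAS1718, 945 in SSK41 and 913 in VL51, and from 6.42 to 204 CPM with a median of 29.9 in the mantle lines. The fold change was 3.50 ± 0.67 (SE; 5 against 9 lines; edgeR adjusted p = 0.0752), on mean log2 CPM of 8.83 ± 1.15 (SD) and 5.01 ± 1.39 (SD). All 5 lines were above 8 of the 9 mantle lines, and JVM2 at 204 CPM was the mantle line above HC_1. CDK6 was the gene that limma-voom called.

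CCND1 (chromosome 11 at 69641087 to 69654474, plus strand), which the mantle label would place high, separated the mantle lines into 2 ranges. Its level was 20683 CPM in MAVER1, 12841 in MINO, 2676 in GRANTA519 and 2014 in JVM2, but 101 in REC1, 27.9 in SP49, 12.4 in UPN1, 9.01 in JEKO1 and 7.50 in SP53. The first side read 98.6 in HAIR_M, 14.5 in HC_1, 18.7 in KARPAS1718, 32.2 in SSK41 and 263 in VL51. Thus 4 of the 9 mantle libraries were above every first-side line and the other 5 were inside or below that side's range, against what the mantle label would give. Since the place of the CCND1 probe is not given, transcript forms that it would miss could not be checked. The fold change was -5.64 ± 2.00 (SE; edgeR adjusted p = 0.471).

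The other D-type cyclins did not follow the sides. CCND2 (chromosome 12 at 4273772 to 4305350, plus strand) was at 1207 CPM in HAIR_M, 1334 in HC_1, 22.7 in KARPAS1718, 15.7 in SSK41 and 3298 in VL51, and from 11.8 to 3412 with a median of 32.4 in the mantle lines, with JVM2 the highest. Its fold change of 1.35 ± 1.30 had an edgeR adjusted p of 0.974. KARPAS1718 and SSK41, the lines with the least CCND2 on their side, were 2 of the 3 with the most CDK6. VL51, with the most CCND2 on that side, was the other, so CDK6 did not run against CCND2 there. CCND3 was at 832 CPM in SSK41 and at 103 to 219 CPM in the other 4, and at 73.0 to 253 CPM in the mantle lines (fold change 1.04 ± 0.46, edgeR adjusted p = 0.622). CDK4, the other cyclin D kinase (chromosome 12 at 57747727 to 57756013, minus strand), was at 251 CPM in HAIR_M, 279 in HC_1, 896 in KARPAS1718, 497 in SSK41 and 1081 in VL51, and at 479 to 2182 CPM with a median of 801 in the mantle lines. Both hairy-cell lines thus lay below all mantle lines for CDK4, whereas the fold change of the sides was -0.71 ± 0.47 (edgeR adjusted p = 0.912). The share of all genes with such a gap was not counted. In the 3-group fit described below, CDK4 differed by -1.89 ± 0.64 between hairy-cell and mantle lines (edgeR adjusted p = 0.174). With all genes cut into 4 equal bins by mean level, the median of that difference was -0.69 and -0.75 in the upper 2 bins. RBL1, a retinoblastoma-family repressor that these kinases phosphorylate, had a fold change of -1.19 ± 0.52 (edgeR adjusted p = 0.622).

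Of the 16 genes of G1 cyclins, kinases and inhibitors, 0 were called, 2 were higher (CDK6, CCND3) and 2 lower (CCND1, RBL1) at an unadjusted p under 0.05, and the median fold change was -0.19 beside 0.10 over all genes. Of the 35 general cell cycle genes, 29 had a fold change below 0 with a median of -0.30, none was called, and CCNE2, the cyclin E that drives entry into S phase, was the member with an unadjusted p under 0.05. CCNE2 was at 694 CPM in KARPAS1718 and at 127 to 254 CPM in the other 4 lines (fold change 1.11 ± 0.52, edgeR adjusted p = 0.69). The mantle lines were at 50.1 to 344 CPM with a median of 90.4 CPM, so those 4 lines lay inside the mantle range. Without the 2 hairy-cell lines the median of the cell cycle genes was 0.03 and without the 3 marginal zone lines -0.77, so the sign of the pooled value held only with the hairy-cell lines included.

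**Figure D2:**
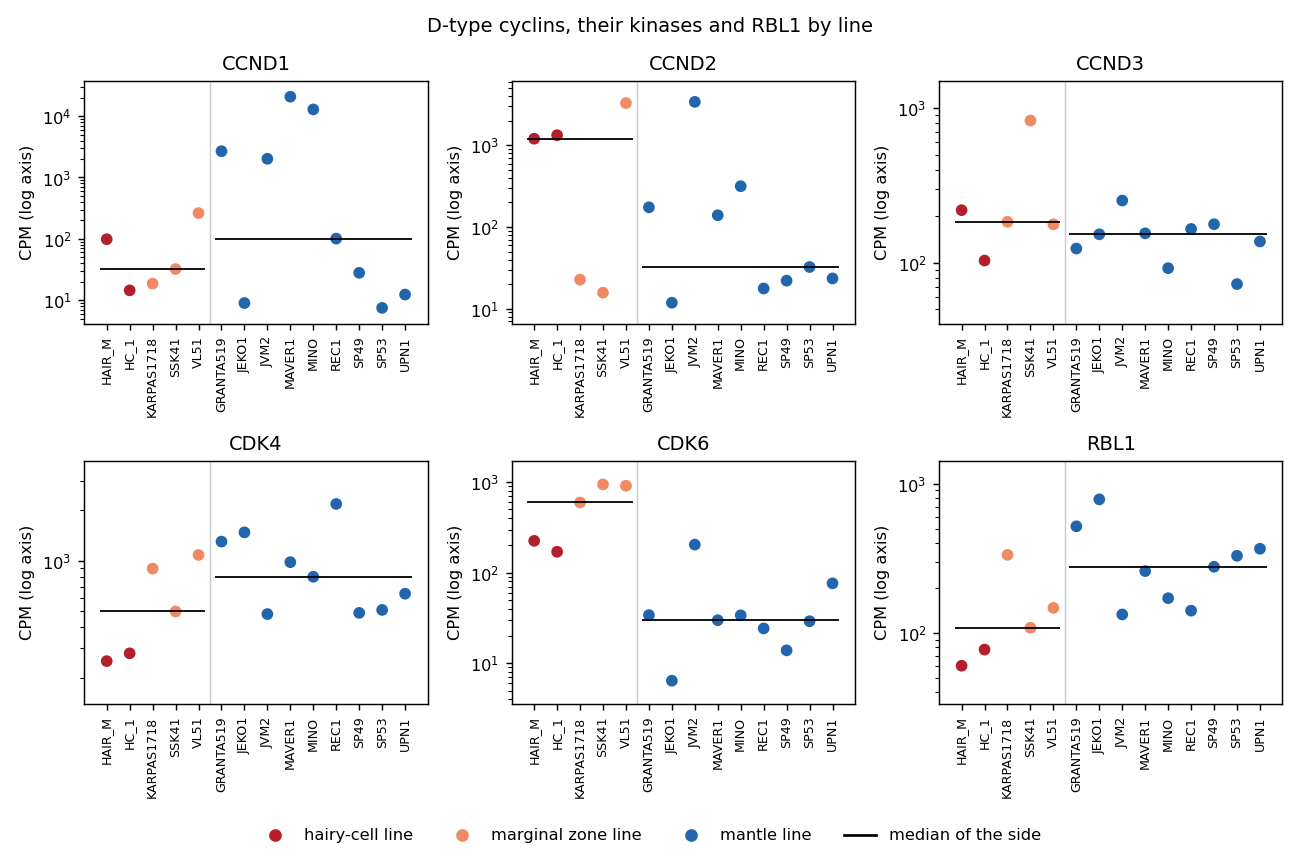
CPM on a log axis (y) of CCND1, CCND2, CCND3, CDK4, CDK6 and RBL1 in each of the 14 lines (x), coloured by hairy-cell, marginal zone and mantle, with a black line at the median of each side. CDK6 medians were 596 and 29.9 CPM, and CCND1 was at 2014 CPM or more in GRANTA519, JVM2, MAVER1 and MINO alone among the 14 lines.

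EFNA5 had the smallest p of all genes and was high in 3 of the 5 first-side lines. EFNA5 (chromosome 5 at 107376889 to 107670895, minus strand) encodes a membrane-anchored ephrin that binds Eph receptors on neighbouring cells. It was at 1932 CPM in HAIR_M, 563 in HC_1 and 1429 in VL51 but at 2.61 in KARPAS1718 and 2.01 in SSK41, and from 0.624 to 28.1 with a median of 3.53 CPM in the mantle lines. The fold change was 6.67 ± 1.26 (SE; edgeR adjusted p = 0.0752) on mean log2 CPM of 6.63 ± 4.90 and 2.11 ± 1.71 (SD). HAIR_M, HC_1 and VL51 stood above all 9 mantle lines, whereas the other marginal zone lines lay within the mantle range, so the sides overlapped and the gene followed neither disease label.

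PLAU, IL1R2 and CCL20 had the same split of lines. PLAU (chromosome 10) encodes urokinase, a protease that activates plasminogen, and was at 213 CPM in HAIR_M, 69.4 in HC_1, 11.2 in KARPAS1718, 9.27 in SSK41 and 2065 in VL51, against 10.8 to 46.6 with a median of 18.0 in the mantle lines (fold change 4.27 ± 0.93, edgeR adjusted p = 0.0838). IL1R2 (chromosome 2 at 101991844 to 102028544, plus strand), a decoy receptor that binds interleukin-1 without signalling, was at 229, 52.9, 6.35, 9.47 and 1228 CPM in the same order, against 2.70 to 40.4 with a median of 13.5 (fold change 4.22 ± 0.94, edgeR adjusted p = 0.0838). CCL20 (chromosome 2 at 227805739 to 227817564, plus strand), the ligand of CCR6, was at 86.3, 121, 6.35, 14.0 and 1348 CPM, against 7.20 to 50.7 with a median of 20.7 (fold change 3.84 ± 0.91, edgeR adjusted p = 0.129). In all 3 genes VL51 was the highest line and KARPAS1718 and SSK41 lay inside the mantle range or below it. The fold change of PLAU was 1.62, that of IL1R2 2.18 and that of CCL20 1.37 at its lowest when lines were left out in turn.

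JAG1 and BMP4 are ligands of the NOTCH and BMP receptors. JAG1 (chromosome 20 at 10637684 to 10673999, minus strand) was at 841 CPM in HAIR_M, 69.7 in HC_1, 39.3 in KARPAS1718, 36.5 in SSK41 and 467 in VL51, against 9.15 to 120 with a median of 19.2 in the mantle lines, where JVM2 was the highest (fold change 3.18 ± 0.79, edgeR adjusted p = 0.129). All 5 were above the mantle median, and HAIR_M and VL51 were above all 9 lines. BMP4 (chromosome 14 at 53949736 to 53958761, minus strand) was at 1655 CPM in HAIR_M and at 19.8, 4.48, 6.15 and 3.42 CPM in HC_1, KARPAS1718, SSK41 and VL51, against 2.48 to 25.5 CPM in the mantle lines. Its fold change of 4.85 ± 1.18 (edgeR adjusted p = 0.129) was that of HAIR_M, without which it was -0.46.

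SSK41 was among the high lines for CA9, ETV5 and GSN, unlike for EFNA5, PLAU, IL1R2, CCL20, JAG1 and BMP4. CA9 (chromosome 9 at 35673856 to 35681159, plus strand), a carbonic anhydrase known as a hypoxia-inducible gene, was at 15.0 CPM in HAIR_M, 40.1 in HC_1, 27.1 in KARPAS1718, 376 in SSK41 and 217 in VL51, against 3.15 to 33.5 with a median of 11.6 (fold change 3.45 ± 0.73, edgeR adjusted p = 0.0838). ETV5 (chromosome 3 at 186046308 to 186110318, minus strand), an ETS transcription factor known as a target of MAPK signalling, was at 167, 87.7, 12.7, 173 and 139 CPM, against 5.74 to 35.0 with a median of 16.6 (fold change 2.62 ± 0.57, edgeR adjusted p = 0.0838). GSN (chromosome 9 at 121207794 to 121332843, plus strand), which severs actin filaments, was at 73.4, 21.6, 22.5, 199.8 and 280.5 CPM, against 3.21 to 36.7 with a median of 14.9 (fold change 2.66 ± 0.64, edgeR adjusted p = 0.129). For ETV5, 4 of the 5 lines were above every mantle line and KARPAS1718 was inside their range. Over the 10 higher leading genes, HAIR_M and VL51 exceeded all mantle lines in 9 each, HC_1 in 6, SSK41 in 4 and KARPAS1718 in 1. Picking genes by the smallest p between the sides favours such counts. The share over all genes was not counted for each line.

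**Figure D3:**
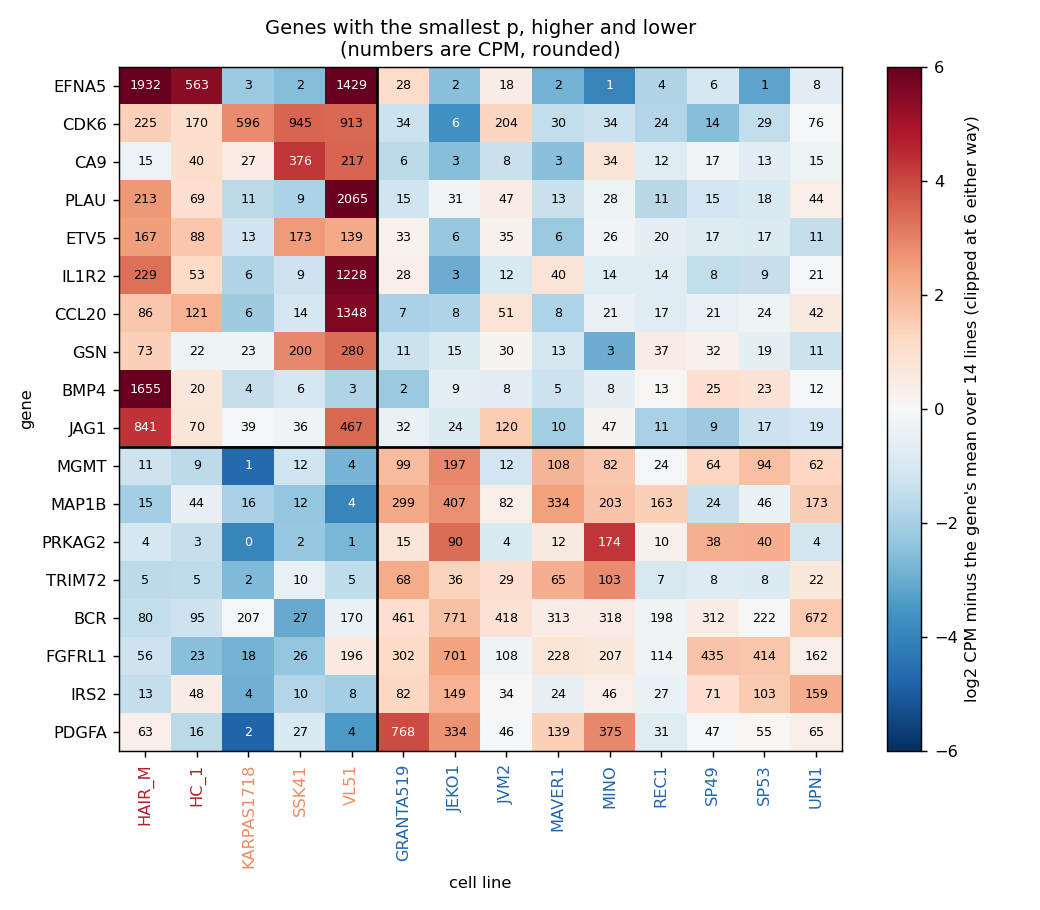
Of the 20 genes with the smallest p, 18 are shown (rows; 10 higher above the line, 8 lower below) in the 14 lines (columns), coloured by log2 CPM minus the gene's mean and printed as rounded CPM. EFNA5 is at 1932, 563 and 1429 CPM in HAIR_M, HC_1 and VL51, and MGMT is at most 11.6 CPM in the first-side lines.

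Over the 10 lower leading genes, VL51 was below all mantle lines in 9, KARPAS1718 in 8, HC_1 and SSK41 in 7 each and HAIR_M in 6. These genes were picked by p in the same way, so the counts carry the same limit. MGMT (chromosome 10 at 129467184 to 129768007, plus strand) encodes the enzyme that removes alkyl groups from guanine in DNA. It was at 11.3 CPM in HAIR_M, 8.72 in HC_1, 0.871 in KARPAS1718, 11.6 in SSK41 and 3.71 in VL51, against 11.7 to 197 with a median of 81.7 CPM in the mantle lines. The fold change was -3.51 ± 0.75 (edgeR adjusted p = 0.0838) on mean log2 CPM of 2.46 ± 1.47 and 6.01 ± 1.22 (SD). On TMM-scaled CPM all 5 lines were below all 9 mantle lines, but narrowly, with SSK41 at 11.59 CPM and JVM2 at 11.71. The TMM factors were 0.985 in SSK41 and 0.850 in JVM2, so the lack of overlap rested on that scaling. The next mantle line above JVM2 was REC1 at 24.2 CPM. MAP1B (chromosome 5 at 72107234 to 72209570, plus strand), a microtubule-binding protein best known from neurons, was at 14.8, 43.5, 15.8, 12.3 and 3.71 CPM, against 24.4 to 407 with a median of 173 (fold change -3.41 ± 0.75, edgeR adjusted p = 0.0838). HC_1 was the line that reached into the mantle range, where SP49 had the lowest level.

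PRKAG2, a regulatory subunit of the energy sensor AMPK, was at 0.373 to 4.09 CPM on the first side and at 3.86 to 174 CPM in the mantle lines (fold change -4.36 ± 1.05, edgeR adjusted p = 0.129). The first-side median of 1.61 CPM was near background, as the highest control probe was at 0.665 to 1.71 CPM in those libraries. MINO and JEKO1 were the highest lines for PRKAG2. TRIM72, best known for membrane repair in muscle, had a fold change of -2.84 ± 0.75 (edgeR adjusted p = 0.186). BCR (chromosome 22 at 23179704 to 23318037, plus strand) was at 80.5 CPM in HAIR_M, 95.0 in HC_1, 207 in KARPAS1718, 27.4 in SSK41 and 170.3 in VL51, against 198 to 771 with a median of 318 (fold change -1.82 ± 0.49, edgeR adjusted p = 0.201). Only KARPAS1718 and REC1 overlapped for BCR. Also among the lower leading genes was FGFRL1, an FGF receptor without a kinase domain (fold change -2.22 ± 0.66, edgeR adjusted p = 0.304). PDGFA, a ligand of PDGF receptors, had -3.20 ± 1.01 (edgeR adjusted p = 0.365). IRS2, an adaptor of the insulin receptor, had -2.21 ± 0.68 (edgeR adjusted p = 0.342).

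Of 10 B-cell identity genes tested, 8 had a fold change below 0 with a median of -0.22 (0.042 without the hairy-cell lines), and none was called. The 21 B-cell receptor and PI3K genes had a median of -0.09 (0.29 without the hairy-cell lines), with PIK3R1 higher (1.09 ± 0.44) and AKT1 lower (-0.99 ± 0.46) at an unadjusted p under 0.05, and none was called.

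Genes linked to the diseases did not separate the sides. Of 20 listed mantle cell lymphoma genes 7 were tested, and 6 had a fold change below 0 with a median of -0.57. That median is the value of ATM. The list also holds CDK4, so it is not a set of markers by level alone. CD5 (chromosome 11 at 61102395 to 61127852, plus strand), a T-cell antigen that mantle cells also carry, was at 53.9 CPM in KARPAS1718 and at 3.73 to 5.99 in the other 4 first-side lines, and from 1.91 in JVM2 to 203 in MINO with a median of 11.9 in the mantle lines (fold change -1.64 ± 1.02, edgeR adjusted p = 0.876). Of 20 listed hairy cell leukaemia genes 8 were tested, 6 with a fold change above 0 and a median of 0.90, which was 0.27 without the hairy-cell lines and -0.15 with log2 library size as a covariate. ANXA1 (chromosome 9 at 73151757 to 73170393, plus strand) was at 791 CPM in HC_1 and at 9.59 in HAIR_M, 2.99 in KARPAS1718, 10.4 in SSK41 and 15.4 in VL51, and among the mantle lines at 208 in JVM2, 54.5 in MAVER1 and at most 7.55 in the other 7. Its fold change of 2.41 ± 1.40 (edgeR adjusted p = 0.837) was -1.64 without HC_1. IL2RA (chromosome 10 at 6010689 to 6062370, minus strand), the CD25 chain of the interleukin-2 receptor, was at 77.3 CPM in HAIR_M and 66.1 in HC_1 but at 585 in KARPAS1718, 539 in SSK41 and 2.28 in VL51, against 15.0 to 262 with a median of 85.8 in the mantle lines (fold change 1.44 ± 0.82, edgeR adjusted p = 0.832). Thus the hairy-cell lines were not the high ones for IL2RA, and 1 of them was for ANXA1. In the 3-group fit described below, the median hairy-cell minus marginal zone difference of the 8 hairy cell leukaemia genes was 1.30. Of these, 5 were above 0. ANXA1 (5.38 ± 2.38) and FLT3 (2.55 ± 0.93) had an unadjusted p under 0.05 in edgeR, and neither passed (adjusted p = 0.141 and 0.101). The median over all genes was -0.55, and that of the lowest of 4 level bins was 1.77. The 8 marginal zone B-cell genes tested had a median fold change of 0.005 with 4 above 0.

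Signalling lists were counted against the same background of all genes, and none held a called gene. Of 24 MAPK genes, 15 had a fold change above 0 with a median of 0.26, and ETV5, FOSL1 (1.29 ± 0.53), a component of AP-1, and SPRY4 (1.58 ± 0.68), a feedback inhibitor, were higher at an unadjusted p under 0.05. Without VL51 that median was -0.11. Of 16 NOTCH genes, 10 were above 0 with a median of 0.70, and JAG1 and RBPJ (0.92 ± 0.34), the DNA-binding partner of NOTCH, were higher at that level. RBPJ was at 559 CPM in HAIR_M, 412 in HC_1, 448 in KARPAS1718, 357 in SSK41 and 1279.7 in VL51, against 201 to 407 CPM in the mantle lines. NOTCH1 itself was at 512 CPM in HAIR_M, 49.6 in HC_1, 35.7 in KARPAS1718, 114 in SSK41 and 274 in VL51, against 38.9 to 166 CPM (fold change 1.03 ± 0.56, edgeR adjusted p = 0.801). With log2 library size as a covariate the median of the NOTCH genes was -0.01.

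Of 11 germinal centre genes, 10 had a fold change above 0 with a median of 0.91, which was 1.22 without the hairy-cell lines and -0.27 without the marginal zone lines. ASB13, the member with an unadjusted p under 0.05, was at 486 CPM in SSK41 and at 0 to 12.4 CPM in the other 4 lines, and its fold change of 3.20 ± 1.13 was -0.77 without SSK41. The 31 NF-kB subunits and targets had a median of 0.16 with 21 above 0, the 12 interferon response genes 0.05 with 8 above, the 7 MHC genes -0.22 with 1 above, the 16 BCL2 family genes 0.10 with 10 above, the 11 plasma cell genes -0.03 with 5 above and the 22 p53 target and DNA damage genes 0.18 with 15 above. No member of these 6 lists had an unadjusted p under 0.05. STAT5A, which carries cytokine signals to the nucleus, was the member of the 23 JAK-STAT genes at that level (fold change 2.11 ± 0.98, edgeR adjusted p = 0.69). It was at 22.0 to 900.2 CPM with a median of 185 on the first side, where VL51 was the highest and HAIR_M was at 854. The mantle lines ran from 8.78 CPM to 591 in JVM2, with a median of 33.3 CPM, so the sides overlapped. NR3C1, the glucocorticoid receptor (chromosome 5 at 143277931 to 143435512, minus strand), was at 541 to 1824 CPM on the first side and at 113 to 576 CPM in 8 mantle lines with JVM2 at 1599.9 (fold change 1.49 ± 0.56, edgeR adjusted p = 0.544). NR3C1 was among the 11 genes that passed without JVM2.

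Of 30 WNT genes, 16 had a fold change above 0 with a median of 0.09. At an unadjusted p under 0.05 the receptor FZD6 (1.33 ± 0.56) and the ligand WNT7B (0.91 ± 0.43) were higher, and the ligands WNT16 (-2.32 ± 0.95) and WNT6 (-1.65 ± 0.75) lower. Of 17 costimulation and checkpoint genes, 14 were above 0 with a median of 0.28, which was -0.50 without the hairy-cell lines. CD274, which encodes the PD-1 ligand PD-L1, was at 152 CPM in HAIR_M, 255 in HC_1, 10.2 in KARPAS1718, 16.7 in SSK41 and 789 in VL51, against 1.46 to 303 with a median of 31.6 (fold change 1.99 ± 0.94, edgeR adjusted p = 0.699). PDCD1, which encodes PD-1, was at 3.99 to 48.5 CPM on the first side and at 29.5 to 208 CPM with a median of 73.9 in the mantle lines (fold change -1.88 ± 0.66, edgeR adjusted p = 0.471). Of 29 TNF superfamily genes, 21 were above 0, and TNFRSF10D, a decoy receptor of TRAIL, had 1.42 ± 0.62.

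**Figure D4:**
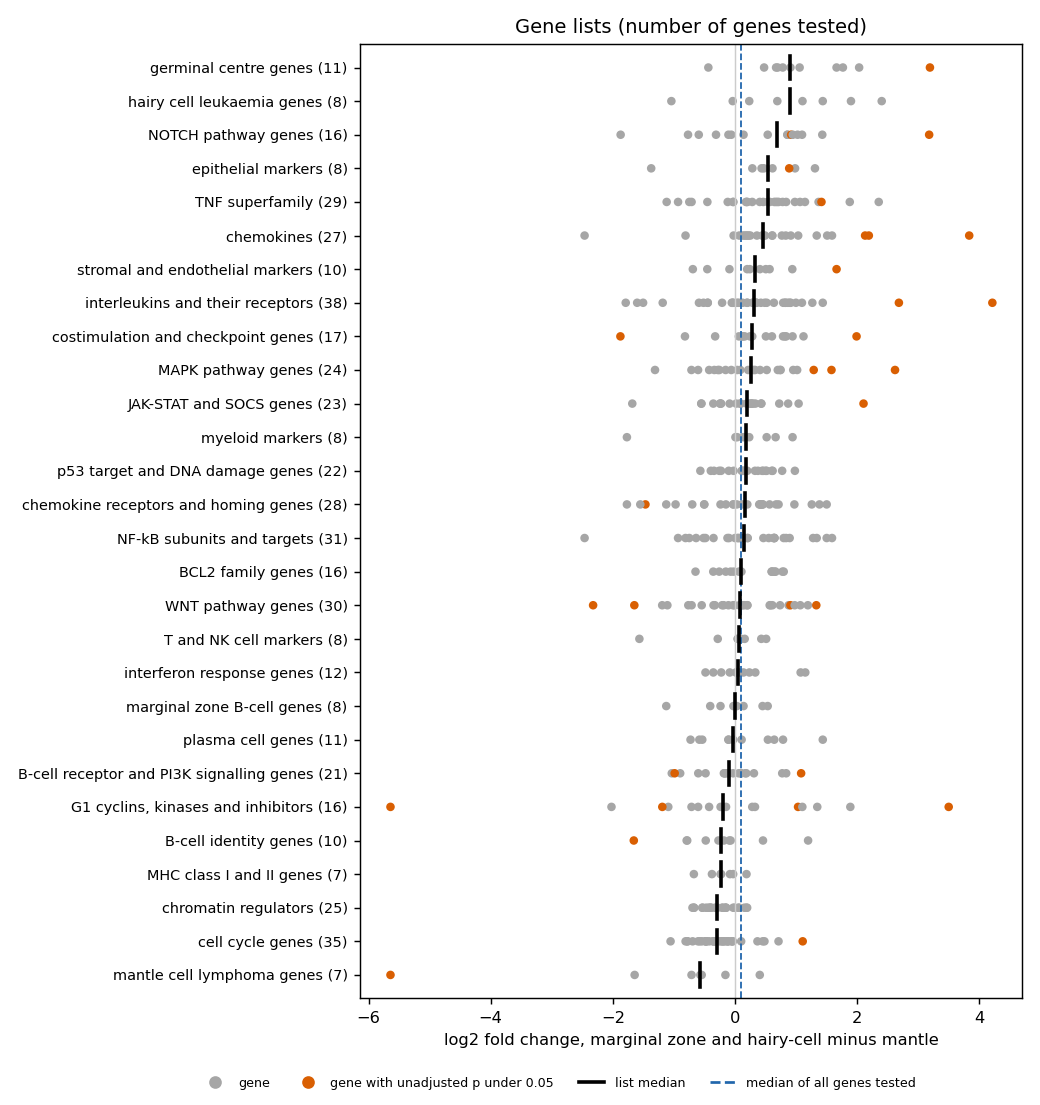
Log2 fold change of the marginal zone and hairy-cell side over the mantle side (x axis) for each gene (dots) of each list (y axis, with the number tested), orange where the unadjusted p is under 0.05, with the list median in black and the median of all genes as a dashed line. Medians run from -0.57 for mantle cell lymphoma genes to 0.91 for germinal centre genes, beside 0.10 for all genes.

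Of 27 chemokines, 24 had a fold change above 0 with a median of 0.47, and CCL20, XCL2 and CXCL10 had an unadjusted p under 0.05. XCL2 was at 1013 CPM in HAIR_M and 473 in HC_1, but at 18.8 in KARPAS1718, 16.6 in SSK41 and 37.5 in VL51, against 6.98 to 234 CPM in the mantle lines. CXCL10, an interferon-inducible ligand of CXCR3, was at 1329.6 CPM in HAIR_M and at 17.4 to 71.6 CPM in the other 4 lines, and its fold change of 2.13 ± 0.96 was -0.80 without HAIR_M. Without the 2 hairy-cell lines the median of the chemokines was -0.99 and without the 3 marginal zone lines 1.55. Of 28 chemokine receptors and homing genes, the median was 0.16 (-0.91 without the hairy-cell lines and 1.18 without the marginal zone lines), and CCR2 was lower at that level (-1.47 ± 0.69). Of 38 interleukins and receptors, 26 were above 0 with a median of 0.32 (-0.34 without the hairy-cell lines), and IL1R2 and the signalling receptor IL1R1 (2.69 ± 0.81) were higher at that level. Chromatin regulators had a fold change below 0 in 20 of 25 genes with a median of -0.28, which was 0.08 without the hairy-cell lines. Markers of other tissues had medians of 0.08 (8 T and NK cell genes), 0.19 (8 myeloid), 0.33 (10 stromal and endothelial) and 0.55 (8 epithelial). Without the hairy-cell lines these were -1.22, -0.78, -0.23 and 0.12. Of these genes TIE1 (1.67 ± 0.51), an endothelial receptor, and MUC1 (0.89 ± 0.42), an epithelial mucin, were higher at an unadjusted p under 0.05. None of these lists held a called gene.

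The first side was then taken apart in a fit of hairy-cell, marginal zone and mantle lines as 3 groups. Hairy-cell and marginal zone lines differed in 3 genes of 2207 (0.136%) at an adjusted p under 0.05 in edgeR, all higher in the hairy-cell lines. At an unadjusted p under 0.05 they differed in 691 genes (31.3%), of which 380 were higher in the hairy-cell lines (17.2%). The growth hormone receptor gene GHR (chromosome 5 at 42423777 to 42721878, plus strand) was at 347 CPM in HAIR_M and 354 in HC_1, but at 8.59 in KARPAS1718, 17.8 in SSK41 and 21.4 in VL51, against 8.33 to 36.0 CPM in the mantle lines, a log2 difference from the marginal zone lines of 4.46 ± 0.74 (2 against 3 lines; edgeR adjusted p = 0.0434). VCAN, a large matrix proteoglycan, was at 581 and 364 CPM in the hairy-cell lines and at 15.4, 28.1 and 13.8 CPM in KARPAS1718, SSK41 and VL51, against 16.1 to 105 CPM in the mantle lines, a difference of 4.63 ± 0.81 (edgeR adjusted p = 0.0434). Both hairy-cell lines were above the 12 others for GHR and VCAN, but the share of all genes with such a gap was not counted. BMP4 also passed (7.48 ± 1.39, edgeR adjusted p = 0.0495), with HC_1 at 19.8 CPM above the marginal zone lines but inside the mantle range. No gene was called without HAIR_M or without KARPAS1718, and without VL51 the 1 gene called was APP, so that GHR, VCAN and BMP4 were all lost. Without HC_1 5 genes were called, with these 3 among them, and without SSK41 11, with GHR and VCAN but not BMP4. DESeq2's size factors in place of TMM gave 33.

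The hairy-cell libraries also differed from the others in make-up. Their TMM factors were 1.22 in HAIR_M and 1.56 in HC_1, against 0.73 to 0.985 in the marginal zone lines and 0.763 to 1.32 in the mantle lines. The median level of the lower-expressed genes was 33.0 CPM in HAIR_M and 47.0 in HC_1, against 10.5 to 20.2 in the marginal zone lines and 12.5 to 31.1 in the mantle lines. With the genes cut into 4 equal bins by mean level, the median log2 difference of hairy-cell from marginal zone lines was 1.77 in the lowest bin, -0.04 and -0.94 in the next, and -1.001 in the highest. For the chemokines it was 2.33, with 24 of 27 above 0, and for the chromatin regulators -1.33, with 0 of 25 above 0. The T and NK cell markers, 8 of which were tested, had a median of 1.76 and the myeloid markers 1.45. With log2 TMM factor as a covariate, GHR, VCAN and BMP4 were not called, the 1 gene called between hairy-cell and marginal zone lines was KLK1, and the genes at an unadjusted p under 0.05 numbered 311 in place of 691.

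**Figure D5:**
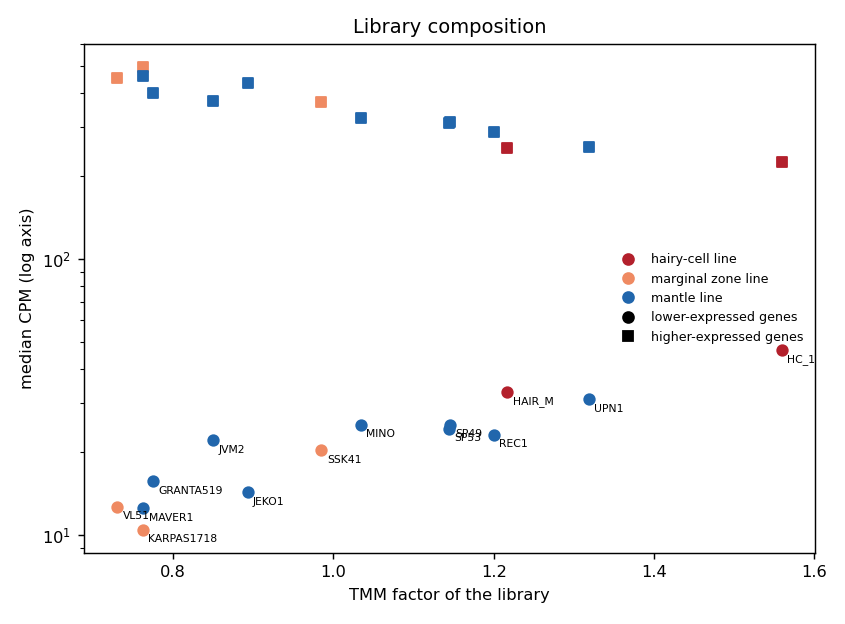
Median CPM on a log axis (y) of the lower-expressed (circles) and higher-expressed (squares) genes in each of the 14 libraries against the TMM factor (x), coloured by hairy-cell, marginal zone and mantle. HC_1 has the highest factor, 1.56, and the highest median of lower-expressed genes, 47.0 CPM.

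In the same fit, each part of the first side had its own difference from the 9 mantle lines, which both comparisons share. The hairy-cell lines differed in 8 genes (0.362%), all higher, namely BMP4, CDC42BPA, EFNA5, GHR, PROK2, SERPINB2, SPRY4 and VCAN. From the lowest to the highest level bin, the median hairy-cell minus mantle difference was 1.06, 0.25, -0.69 and -0.75. How far these calls depend on that library make-up was not tested. The log2 difference was 7.34 ± 1.44 for EFNA5 (edgeR adjusted p = 0.0347), 3.90 ± 0.50 for GHR (adjusted p = 0.00202) and 2.76 ± 0.52 for SPRY4 (adjusted p = 0.0347). The kinase gene CDC42BPA was at 78.0 CPM in HAIR_M and 115 in HC_1 against 6.58 to 24.2 CPM in the mantle lines, and PROK2, a secreted ligand, was at 216 and 81.0 CPM against 7.69 to 37.0 CPM. SERPINB2, an inhibitor of urokinase, was at 1546 CPM in HC_1 but at 42.9 CPM in HAIR_M, inside the mantle range of 5.18 to 54.9 CPM.

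The marginal zone lines differed from the mantle lines in 3 genes (0.136%), with CDK6 (4.03 ± 0.69) and CA9 (4.06 ± 0.70) higher and FAM64A lower (-3.24 ± 0.53), each at an edgeR adjusted p of 0.022. For the hairy-cell lines the same differences were 1.98 ± 0.79 for CDK6 (adjusted p = 0.179), 1.16 ± 0.83 for CA9 (adjusted p = 0.374) and -0.44 ± 0.52 for FAM64A (adjusted p = 0.591). The direct comparison of hairy-cell with marginal zone lines gave -2.05 ± 1.12 for CDK6 (adjusted p = 0.215), -2.91 ± 1.18 for CA9 (adjusted p = 0.12) and 2.80 ± 0.59 for FAM64A (adjusted p = 0.0512), none of which passed. FAM64A, a gene of mitotic exit, was at 10.2 CPM in KARPAS1718, 30.7 in SSK41 and 13.4 in VL51, at 95.9 in HAIR_M and 157 in HC_1, and at 107 to 248 CPM in the mantle lines. The 3 marginal zone lines were below all 11 others for FAM64A, but the share of all genes with such a gap was not counted.

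The mantle line nearest the first side over the 20 leading genes was JVM2, which had the value nearest the other side within its own group in 7 genes. SSK41 was its counterpart on the first side, also with 7 genes. Without JVM2, CDK6, EFNA5, ETV5, JAG1, MAP1B and MGMT of the leading genes passed, together with EPS8, HSPA1A, NR3C1, PLA1A and STAT5A. Without KARPAS1718 those that passed were CA9, CCL20, CDK6, EFNA5, ETV5, GSN, IL1R2, LRP12, NRG2 and PLAU. CDK6, EFNA5 and ETV5 were in both sets. Without GRANTA519 and JVM2 together 10 genes passed, beside 0 without GRANTA519 alone.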

How the data were processed

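Raw read counts per gene for 36 lines were deposited by the authors, and the 14 lines named in the report were used, with columns matched by the sample number in the labels. The authors also deposited log2 values, which equal log2 of 1 plus the count scaled by a single factor in each library, to within 0.00547. These served as an alternative only. Per the submitters' processing notes the genome build was hg38, and no aligner or counter is named there or in the labels. Targets that name no gene (10 control probes) were left out, and took at most 0.00293% of a library. In R 4.3.3, genes at 10 CPM or more in at least 5 lines (2207 of 2549) were fitted on deposited counts with edgeR 4.0.16 (TMM, quasi-likelihood test, Benjamini-Hochberg adjustment, groups of 5 and 9 lines or of 2, 3 and 9). CPM is the read count over the TMM-scaled library total, as edgeR gives it. Log2 CPM used a prior count of 2. The standard error is the fold change divided by the square root of F. DESeq2 1.42.0 and limma 3.58.1 were alternatives. The code was checked on simulated data.

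The named genes were to be up to 15 called genes in each direction with a median of 30 CPM or more on the higher side and a stable sign without each line, filled up to 10 by smallest p where fewer passed, together with CCND1, called members of 28 gene lists and at most 4 others of each list. GHR, VCAN, FAM64A, CDC42BPA, PROK2, SERPINB2, ANXA1, IL2RA, CD5, CCND2, CDK4, NOTCH1, NR3C1, EPS8, HSPA1A, PLA1A, LRP12, NRG2, APP and KLK1 were named after their values were seen. Of the 20 leading genes, 2 are counted but not reported here. Members, lists and lines were chosen with earlier results of these data known. Replicates of a line were not part of the data used. Total counts per library are given in the report, and at these depths counting error is small beside the spread between lines for well-expressed genes. It is not small for values near the control probes, such as PRKAG2 on the first side or MGMT in KARPAS1718 (0.871 CPM).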

Additional observations from a re-analysis of the deposited data

Results flagged for a closer look

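In 44 groups of values tested for a library far from its group, 4 held one, and chance gives about 1 in 20 groups. BMP4 in HAIR_M, at 10.69 log2 CPM, lay above the next first-side line, HC_1, at 4.32. ETV5 in KARPAS1718, at 3.69 log2 CPM, lay below HC_1 at 6.46. GSN in MINO, at 1.77 log2 CPM, lay below the next mantle line, UPN1, at 3.47. The control probes summed to 304 reads in REC1 against 57 in UPN1, the next mantle library.

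Hairy-cell and marginal zone lines differed in a direct edgeR test for BMP4, by 7.48 on the log2 scale (adjusted p = 0.0495), for GHR, by 4.46 (adjusted p = 0.0434), and for VCAN, by 4.63 (adjusted p = 0.0434). Each was higher in both hairy-cell lines than in the 3 marginal zone lines, and for BMP4 HC_1, at 19.8 CPM, lay inside the mantle range.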

How the results depend on the processing

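The count of 0 genes between the sides became 29 (18 higher, 11 lower) with DESeq2's Wald test, 1 higher with limma-voom and with log2 library size as a covariate, 3 (2 higher, 1 lower) without the hairy-cell lines, 51 (50 higher, 1 lower) without the marginal zone lines and 10 (9 higher, 1 lower) without GRANTA519 and JVM2. It ran from 0 to 11 (0 to 10 higher, 0 to 2 lower) when lines were left out in turn, and was 2 (1 higher, 1 lower) with quantile normalisation, added after seeing the data with the exact permutation test, the leaving out of REC1 and UPN1, and the same scaling and tests for hairy-cell against marginal zone lines. The 3 genes of that comparison became 33 with DESeq2's size factors, 464 with its Wald test, 9 with limma-voom, 21 with quantile normalisation, 1 with log2 TMM factor as a covariate and 0 to 11 when lines were left out. The log2 library size difference ran from -0.33 to -0.15, and that of the log2 TMM factor from -0.140 to 0.134.

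Of the 20 leading genes 19 kept their sign under every alternative run, and BMP4 was the exception. With log2 library size as a covariate, fold changes turned to -1.69 for BMP4, -0.087 for SPRY4, -1.61 for CXCL10, -0.33 for XCL2, -0.30 for ANXA1, -0.036 for NOTCH1, -1.03 for EPS8, -0.21 for PLA1A and -0.139 for PROK2. Without the hairy-cell lines they were -1.31 for BMP4, -1.04 for SPRY4, -1.28 for CXCL10, -1.49 for XCL2, -1.71 for ANXA1, -0.56 for GHR, -0.97 for VCAN, -1.42 for EPS8, -0.011 for PLA1A, -0.29 for SERPINB2 and -0.77 for PROK2. Without the marginal zone lines IL2RA was at -0.038. ASB13 was at -0.56 with limma-voom, -0.48 on the authors' log2 values, -0.28 as a difference of mean log2 CPM, -0.099 with quantile normalisation and -0.67 with a prior count of 0.5. When lines were left out in turn, the lowest and highest fold changes were -0.46 and 5.40 for BMP4, -0.77 and 3.51 for ASB13, -0.80 and 3.44 for CXCL10, -1.64 and 4.16 for ANXA1, -0.38 and 4.07 for EPS8, and -0.012 and 4.11 for SERPINB2. The cause was not tested. No paired analysis was possible because the lines carry no replicate numbers that the sides share by label.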
